A study of Homo sapiens with 4 samples.

Results

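The genes described here build the extracellular matrix: every gene in the table named as a collagen chain (COL, a number, A, a number) or a laminin chain (LAMA, LAMB or LAMC with a number), together with FN1, TNC, DCN, PXDN, LOX, NID1, NID2, HSPG2 and AGRN. The rule uses gene names only. They came to 65 of the 20332 genes, namely 44 collagen chains, 12 laminin chains and 9 other matrix proteins. RNA-seq was performed on the androgen-responsive human prostate cancer line LNCaP and on its enzalutamide-resistant subline LN-35 (titled LNCaP-35), with 2 libraries per group. The labels give LNCaP the genotype WT and no treatment, and LN-35 the genotype "resistance cells" and treatment with enzalutamide, which blocks the androgen receptor. LN-35 was obtained, per the study's methods, by adapting LNCaP cells to charcoal-stripped serum and then raising the drug dose stepwise, so it is 1 derived subline and not a set of independent ones. The labels state RPMI-1640 with serum for both groups, and the sources used here do not give whether the drug was present at harvest. Serum, drug and passage history cannot be told apart in this comparison.

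Cells secrete the matrix as large proteins that assemble outside the cell. Laminins, which are trimers of an alpha, a beta and a gamma chain, and collagen IV each form a sheet in the basement membrane under epithelia, and nidogens and perlecan link these sheets. Fibrillar collagens form the fibrils of connective tissue, and the FACIT collagens sit on the surface of such fibrils. In the prostate, luminal cells rest on a basal cell layer and its basement membrane, and fibrillar matrix comes mainly from stromal fibroblasts.

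The library totals lay between 12225173 and 15333722 estimated counts, and edgeR's estimate of the variation between libraries of a group (the biological coefficient of variation) was 6.67%. Nothing in the labels says that replicate libraries were made from different cultures. The p-values therefore reflect the spread of these libraries alone, which may be technical. All 9 luminal prostate markers were above the filter on low counts in the comparison, with 3 higher, 5 lower and 1 not passed. Of the 9, 88.9% were called, beside 71.8% of all genes tested (36.4% higher and 35.5% lower). Markers of fibroblasts other than matrix genes were at or near 0: none of 8 passed the filter, FAP, TCF21, TWIST2 and CD248 were at 0 in every library, and the summed level of the 8 was between 0.0805 and 0.645 CPM (TMM-normalized estimated counts per 1e6). Summed levels of the 6 smooth muscle and pericyte markers were 12.2 and 10.6 CPM in LNCaP and 18.6 and 19.1 CPM in LN-35. TAGLN alone of these was called, and MYH11 and CNN1, which define smooth muscle, had at most 0.444 CPM. Of 6 endothelial markers, 4 were at 0 everywhere and only VWF was tested (lower in LN-35). CD68 was the only leukocyte marker tested and did not pass. The 4 Schwann cell markers summed to at most 0.0717 CPM in LNCaP and at most 0.916 CPM in LN-35, and none was tested. The part of these other markers in the matrix differences was not tested.

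Matrix genes differed between the lines in both directions, and by large amounts. LAMA3, FN1, PXDN, HSPG2, COL18A1, COL16A1 and COL6A2 were lower in LN-35, whereas NID1, TNC, COL12A1, COL14A1, COL4A3, COL27A1 and DCN were higher. Of the 65 genes, 42 passed the filter on low counts and 23 did not. Of the 42, 19 were higher in LN-35, 17 were lower and 6 did not pass an adjusted p of 0.05 (edgeR quasi-likelihood test, two-sided, Benjamini-Hochberg adjustment over all genes tested). The share called was 85.7%, beside 71.8% of all 13744 genes tested, of which 36.4% were higher and 35.5% lower. Large differences were frequent among these genes, which were chosen with earlier results of these data known. Among the 42 genes 23 (54.8%) were called with at least a 4-fold difference, 11 higher and 12 lower, beside 17.4% of all genes tested (11.1% higher and 6.34% lower). The median absolute log2 fold change was 2.18 over the 42 genes and 0.61 over all genes tested, and the median signed values were 0.06 and -0.01. The classes differed in this, with 15 of 25 tested collagens (60%), 2 of 9 laminins (22.2%) and 6 of the 8 tested genes listed by name (75%) called with at least a 4-fold difference. Of the 42, 6 had 3 counts or fewer in 1 group and entered the test through the other group, which fixed their direction, so these shares are descriptions of the genes that passed and not of all 65. All 6 were among the 23 called with at least a 4-fold difference. The other 36 held 15 higher and 15 lower, at a median log2 fold change of -0.11. In bulk RNA, fewer cells expressing a gene and less of its RNA per cell cannot be told apart.

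**Figure D1:**
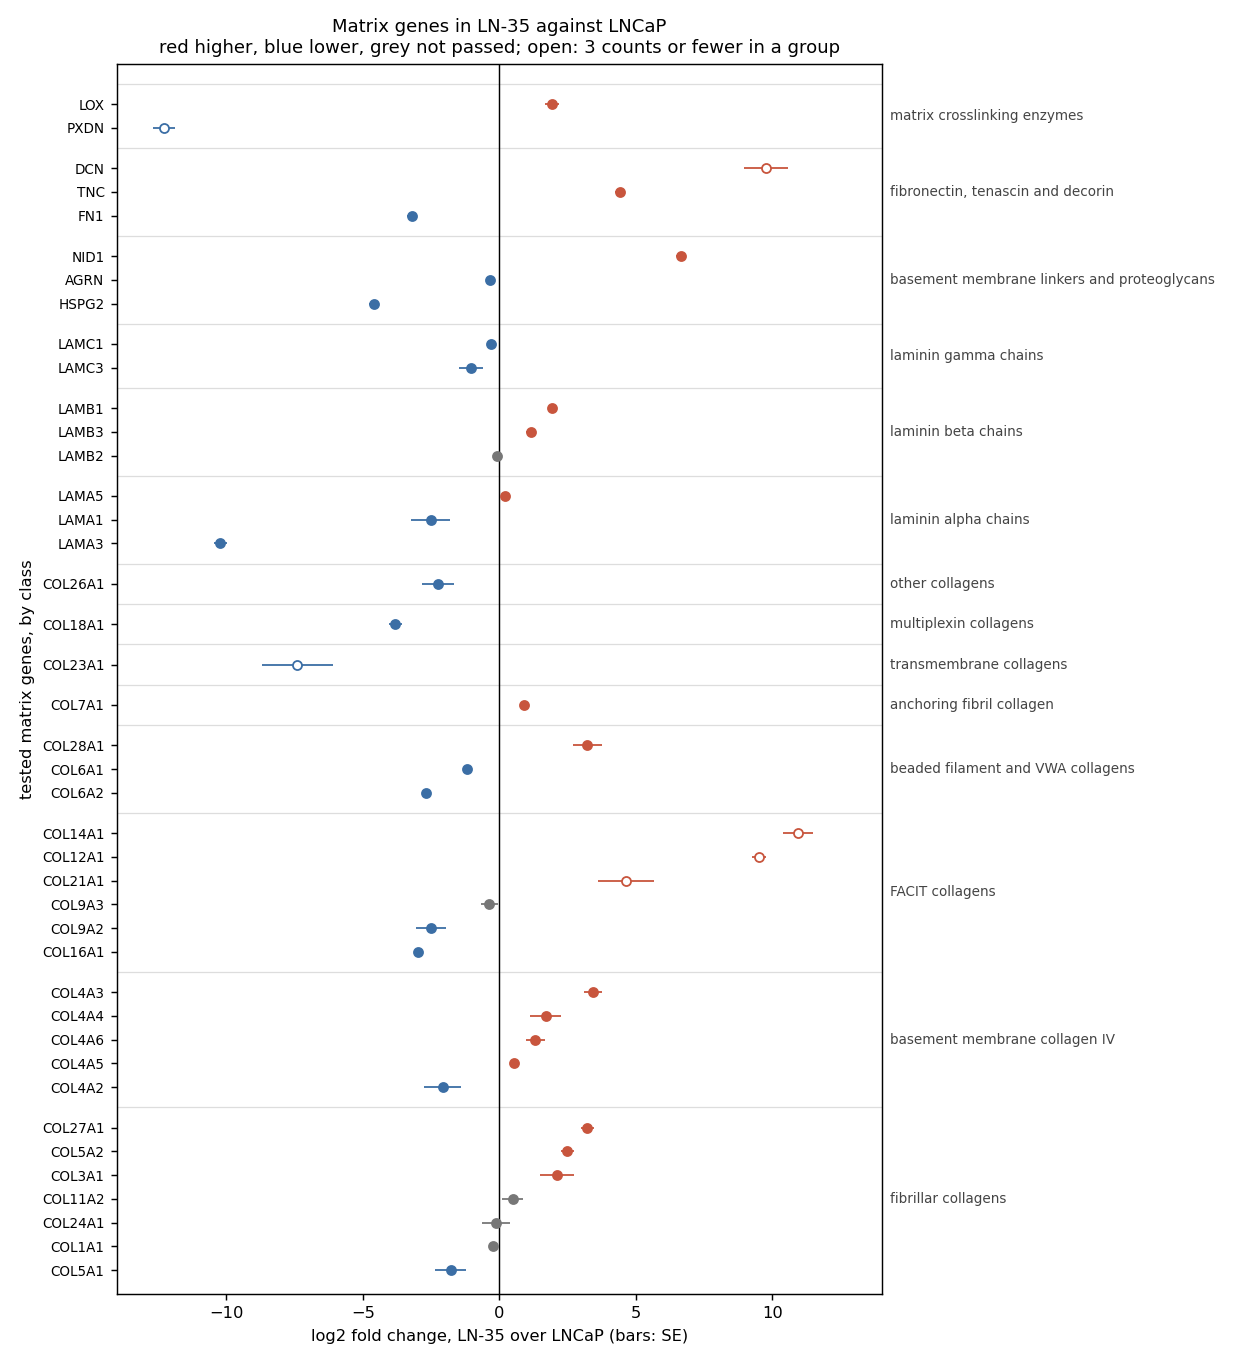
Log2 fold change (LN-35 over LNCaP, x axis) of 41 tested matrix genes, grouped by class, n = 2 libraries per group. Bars show an approximate SE, the absolute log2 fold change over the square root of the F statistic of the test. Red points are the 19 genes called higher, blue points the 17 called lower and grey points 5 that did not pass, and open points mark genes with 3 counts or fewer in a group, whose fitted value depends on the prior count. Most classes hold points on both sides of 0.

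The summed level of all 65 genes was 3088 and 2781 CPM in LNCaP replicates 1 and 2, and 1884 and 1861 CPM in LN-35 replicates 1 and 2. The sum was lower in both LN-35 libraries than in either LNCaP library, and most of the gap lay in FN1 and LAMA3. FN1 took 25.4% and 21% of the sum in LNCaP and 3.89% and 3.97% in LN-35. LAMA3 took 12% and 12.1% in LNCaP and no more than 0.0303% in LN-35. Without these genes, which were singled out after their values were seen, the sum was 1934 and 1861 CPM in LNCaP and 1810 and 1787 CPM in LN-35. LAMC1, the most common laminin gamma chain, was the largest single contributor to the LN-35 sum with 22.6% and 24.2%.

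Levels of different genes were compared per length, as CPM per kb of exon. In LNCaP, LAMC1 was highest at 64.7 CPM per kb, followed by FN1 at 39.5, LAMB2 at 36.5, COL6A1 at 34.7, LAMA3 at 24, COL6A2 at 20 and LAMA5 at 15.9 CPM per kb. The SD of FN1 was 8.14 CPM per kb (n = 2), so FN1 did not differ beyond its spread from LAMB2 or COL6A1. In LN-35, LAMC1 was again highest at 52.1 CPM per kb, followed by LAMB2 at 34.6, LAMA5 at 18.1, COL4A5 at 15.4, COL6A1 at 15.3 and NID1 at 12.3 CPM per kb, and COL4A5 and COL6A1 did not differ beyond their spread. The order depends on the length used: per kb of the longest coding transcript FN1 (76.9) stood above LAMC1 (69) in LNCaP, although the libraries of these genes overlapped, and COL4A5 (28.3) above LAMA5 (22.7) in LN-35.

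**Figure D2:**
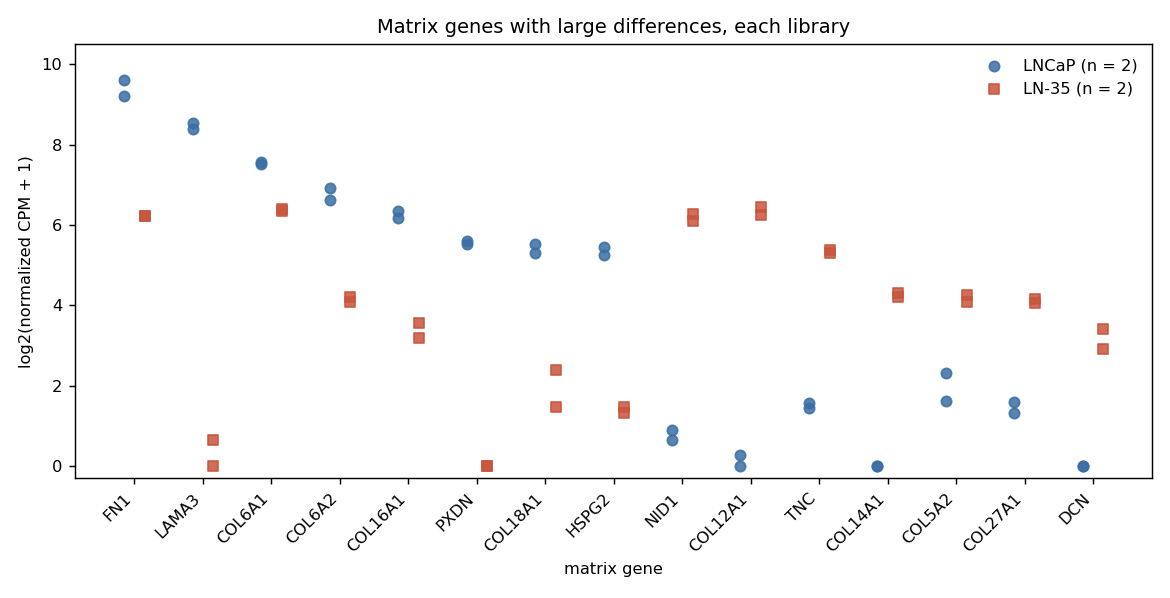
Level of matrix genes with large differences (y axis: log2 of CPM + 1) in each library, blue circles for the 2 LNCaP and red squares for the 2 LN-35 libraries. For the genes from FN1 to HSPG2 both LN-35 points lie below both LNCaP points, and for those from NID1 to DCN above them, with PXDN at 0 in LN-35 and COL14A1 and DCN at 0 in LNCaP.

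Collagen IV, the network collagen of basement membranes, split by gene pair. Its chains are encoded by pairs of genes that lie head to head and are read in opposite directions: COL4A1 with COL4A2 on chromosome 13, COL4A3 with COL4A4 on chromosome 2, and COL4A5 with COL4A6 on the X chromosome. The RefSeq starts of the pairs lie 127, 419 and 380 bases apart, in that order. COL4A1 and COL4A2, the chains found in nearly every basement membrane, were low in LNCaP and lower in LN-35. COL4A1 had 8 and 6 counts in LNCaP (0.508 and 0.43 CPM) and none in LN-35, and it did not pass the filter on low counts. This is at least 3.82-fold lower than its mean LNCaP level against a floor of 3 counts over the LN-35 libraries. The bound leaves out the counting error of the few LNCaP counts. COL4A2 was at 1.46 and 2.8 CPM in LNCaP and 0.916 and 0.0805 CPM in LN-35. The groups did not overlap but the LN-35 libraries were far apart, at a log2 fold change of -2.08 (SE 0.67, adjusted p = 0.00917). That call rested on single libraries, since it did not pass without LN-35 replicate 2 (-1.20, adjusted p = 0.158) or LNCaP replicate 2 (-1.55, adjusted p = 0.147), and without LN-35 replicate 1 the log2 fold change was -4.56.

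The other collagen IV pairs were higher in LN-35. COL4A3, mutated with COL4A4 and COL4A5 in the kidney disease Alport syndrome, was at 0.952 and 0.717 CPM in LNCaP and at 9.25 and 9.09 CPM in LN-35. This was an 11-fold rise (log2 fold change 3.43, SE 0.33, adjusted p = 2.42e-09), with tight replicates. Its partner COL4A4 was at 1.08 and 0.358 CPM in LNCaP and 1.33 and 3.46 CPM in LN-35, a log2 fold change of 1.70 (SE 0.57, adjusted p = 0.0118). The LNCaP and LN-35 replicates of COL4A4 were nearly as far apart as the groups, and it did not pass without LN-35 replicate 2 (0.87, adjusted p = 0.394) or LNCaP replicate 2 (1.14, adjusted p = 0.14), while without LNCaP replicate 1 the value was 2.71. COL4A5 was by far the most abundant collagen IV transcript, at 125 and 126 CPM in LNCaP and 191 and 176 CPM in LN-35. It rose 1.46-fold (log2 fold change 0.55, SE 0.07, adjusted p = 3.41e-07), a small difference well outside the replicate spread. COL4A6 was at 2.35 and 1.86 CPM in LNCaP and 6.33 and 4.18 CPM in LN-35, 2.5-fold higher (log2 fold change 1.31, SE 0.34, adjusted p = 0.00157). Without LN-35 replicate 1 this call was lost (0.99, adjusted p = 0.0653).

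**Figure D3:**
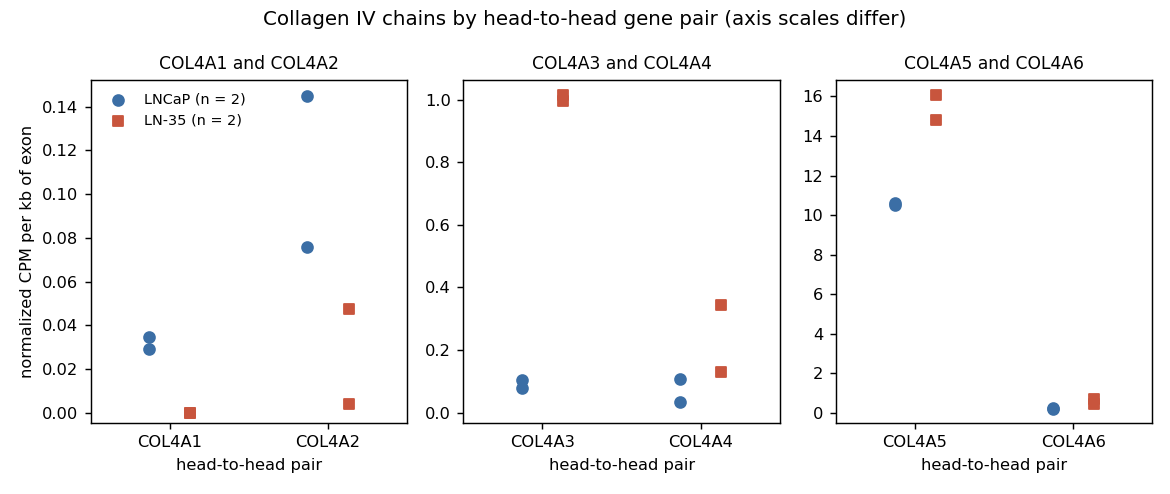
Level of the collagen IV genes per exon length (y axis: normalized CPM per kb of exon, from 0, with a different scale in each panel), 1 panel per head-to-head gene pair, blue circles for LNCaP and red squares for LN-35 libraries. COL4A1 and COL4A2 lie lower in LN-35, with COL4A1 at 0 in both LN-35 libraries, and the other 4 genes lie higher in LN-35.

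Because the genes of a pair share the sequence between their starts, the windows of the first pair (lower in LN-35) and of the second (higher) are shown. They are RefSeq windows on GRCh38.p14, from 250 bases before to 50 bases after the start, read 5′ to 3′ on the strand of the gene. Capitals mark matches on either strand of the GC box GGGCGG, the CCAAT box CCAAT, the TATA box TATAAA and the AP-1 site TGACTCA. COL4A1 is at chr13:110307108-110307407 on the minus strand, COL4A2 at chr13:110307034-110307333 on the plus strand, COL4A3 at chr2:227164374-227164673 on the plus strand and COL4A4 at chr2:227164156-227164455 on the minus strand.
COL4A1: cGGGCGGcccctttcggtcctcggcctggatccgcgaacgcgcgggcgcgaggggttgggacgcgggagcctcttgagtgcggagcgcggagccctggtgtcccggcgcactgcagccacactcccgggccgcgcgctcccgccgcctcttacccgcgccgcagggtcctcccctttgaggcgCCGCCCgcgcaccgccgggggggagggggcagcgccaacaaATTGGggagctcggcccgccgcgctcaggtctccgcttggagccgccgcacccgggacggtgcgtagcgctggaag
COL4A2: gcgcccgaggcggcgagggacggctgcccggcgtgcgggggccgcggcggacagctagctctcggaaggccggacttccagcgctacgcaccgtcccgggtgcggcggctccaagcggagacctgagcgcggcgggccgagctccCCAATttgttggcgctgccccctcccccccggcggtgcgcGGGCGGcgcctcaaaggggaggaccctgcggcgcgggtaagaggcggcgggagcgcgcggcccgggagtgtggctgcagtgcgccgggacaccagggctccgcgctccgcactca
COL4A3: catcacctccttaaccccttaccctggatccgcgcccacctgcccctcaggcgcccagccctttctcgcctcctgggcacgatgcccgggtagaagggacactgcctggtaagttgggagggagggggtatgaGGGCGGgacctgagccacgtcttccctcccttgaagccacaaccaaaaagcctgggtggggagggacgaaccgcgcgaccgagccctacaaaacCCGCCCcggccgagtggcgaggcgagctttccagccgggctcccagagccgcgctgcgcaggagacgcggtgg
COL4A4: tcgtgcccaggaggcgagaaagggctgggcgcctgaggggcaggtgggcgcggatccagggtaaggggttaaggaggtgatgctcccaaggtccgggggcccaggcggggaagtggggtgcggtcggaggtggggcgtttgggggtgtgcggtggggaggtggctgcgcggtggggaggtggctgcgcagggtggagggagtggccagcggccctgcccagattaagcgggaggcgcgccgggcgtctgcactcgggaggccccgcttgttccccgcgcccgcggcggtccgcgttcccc
The first 2 windows overlap over 226 bases and hold the same CCAAT box, on opposite strands. COL4A1 held 2 GC boxes and COL4A2 held 1, COL4A3 held 2, and COL4A4 held no match to any of the motifs searched. The windows of the second pair overlap over 82 bases.

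Such windows were found for 48 of the 65 genes. A GC box was present in 31 of the 48 (64.6%), beside 44.6% of all 27305 windows in the table, and in 12 of 13 windows of genes called lower (92.3%) and 11 of 15 of genes called higher (73.3%). The median ratio of observed to expected CG pairs was 0.88 for genes called lower, 0.7 for those called higher and 0.58 for all windows. The windows of all genes include genes that did not pass the filter on low counts, whereas the called genes all passed it. The parts of base composition and of expression in these shares and ratios were not tested. CCAAT was present in 16 of the 48 windows (33.3%, beside 35.7% of all), in 5 of 15 called higher and 3 of 13 called lower. TATAAA was in 5 of the 48 (10.4%, beside 12%), with 1 called higher and 1 called lower. The androgen response half-site AGAACA, not capitalised in the printed sequences, was in 6 of the 48 windows (12.5%, beside 14.9%). It was in 4 of 15 windows of genes called higher (26.7%) and 1 of 13 of genes called lower (7.7%). A match is a run of letters and was not tested as a binding site, both strands were searched and overlapping matches were counted.

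Fibrillar collagens, which make the fibrils of stroma, bone and cartilage, were mostly low or absent. Of 11 such genes 7 were tested, with 3 higher, 1 lower and 3 not passed (57.1% called, beside 71.8% of all genes tested). COL1A1, the main chain of the collagen of bone and skin, was the only one with a high level, at 44.4 and 35.6 CPM in LNCaP and 37.2 and 30.5 CPM in LN-35. The groups overlapped and the difference did not pass (log2 fold change -0.24, SE 0.12, adjusted p = 0.0796). It lay close to the threshold and passed with the repeat number as a block (adjusted p = 0.0487), with library totals alone (-0.32, adjusted p = 0.0252), with no filter on low counts (adjusted p = 0.0361), without LNCaP replicate 2 (-0.40, adjusted p = 0.0091) and without LN-35 replicate 1 (-0.39, adjusted p = 0.0137). Its usual partner COL1A2 had 5 counts over all 4 libraries.

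COL27A1, a fibrillar collagen of cartilage, showed the largest rise among the tested genes of the class. It was at 1.52 and 2.01 CPM in LNCaP and 16.8 and 15.8 CPM in LN-35, 9.23-fold higher (log2 fold change 3.21, SE 0.24, adjusted p = 2.00e-11). COL5A2, a minor chain of collagen I fibrils, was at 2.09 and 4.01 CPM in LNCaP and 15.9 and 18.1 CPM in LN-35, 5.57-fold higher (log2 fold change 2.49, SE 0.24, adjusted p = 5.29e-09). Both genes were clear of overlap in every library. COL3A1, the collagen of skin and vessel walls, was at 0.317 and 0.43 CPM in LNCaP and 1 and 2.25 CPM in LN-35, 4.35-fold higher at very low level (log2 fold change 2.11, SE 0.63, adjusted p = 0.00465). It did not pass without LN-35 replicate 2 (1.41, adjusted p = 0.24) or without LNCaP replicate 1 (1.89, adjusted p = 0.0684).

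COL5A1, which pairs with COL5A2 in collagen V, went the other way. It was at 1.52 and 2.22 CPM in LNCaP and 0.75 and 0.322 CPM in LN-35, 3.5-fold lower (log2 fold change -1.79, SE 0.57, adjusted p = 0.00791). The call was lost without LNCaP replicate 2 (-1.50, adjusted p = 0.117), without LN-35 replicate 2 (-1.30, adjusted p = 0.152) and with DESeq2 (adjusted p = 0.0531), while without LN-35 replicate 1 the value was -2.49 (adjusted p = 0.0156). The third collagen V chain gene, COL5A3, had 1 and 0 counts in LNCaP, against 8 and 5 in LN-35, 15.8 times as much after scaling (95% counting interval 2.37 to 672), and was not tested. COL11A2, a cartilage collagen, was at 2.41 and 2.15 CPM in LNCaP and 3.58 and 2.82 CPM in LN-35 and did not pass (log2 fold change 0.48, SE 0.37, adjusted p = 0.246). COL24A1 was at 1.59 and 1 CPM in LNCaP and 1.5 and 0.885 CPM in LN-35 and did not pass either (-0.13, SE 0.52, adjusted p = 0.831). COL2A1, the main cartilage collagen, had between 1 and 4 counts per library.

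FACIT collagens, which decorate fibrils, contained the largest rises among collagens. COL12A1, which binds the surface of collagen I fibrils in tendon and other dense tissue, was nearly absent from LNCaP and abundant in LN-35. It had 0 and 3 counts in LNCaP (0 and 0.215 CPM) and 895 and 1075 counts in LN-35 (74.6 and 86.5 CPM), 798 times as much after scaling (95% counting interval 273 to 3875, adjusted p = 7.81e-18). The fitted log2 fold change of 9.51 (SE 0.27) shifted with the few LNCaP counts, to 8.48 without LNCaP replicate 1 and to 13.07 without LNCaP replicate 2. Both values lay outside the 95% interval that goes with the SE (8.95 to 10.08). COL14A1, a related fibril-associated collagen, had no counts in LNCaP and 18.9 and 17.4 CPM in LN-35, which is at least 180-fold higher against the floor of 3 counts over the LNCaP libraries (adjusted p = 2.77e-14). COL21A1 also rose, from 0 and 1 counts in LNCaP to 15 and 11 in LN-35, 31.6 times as much after scaling (counting interval 5.19 to 1296, log2 fold change 4.64, SE 1.02, adjusted p = 0.000309). Without LNCaP replicate 1 the fitted value was 3.72 and without LNCaP replicate 2 it was 6.85. COL19A1 had no counts in LNCaP, against 11 and 5 in LN-35, at least 6.53-fold higher than the floor, and was not tested.

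COL16A1 and COL9A2 fell within the same class. COL16A1, which is deposited near basement membranes and fibrils, was at 71.5 and 80.9 CPM in LNCaP and 8.16 and 10.9 CPM in LN-35, 7.98-fold lower (log2 fold change -2.99, SE 0.13, adjusted p = 1.20e-15). COL9A2, a chain of the collagen that coats cartilage fibrils, was at 2.28 and 2.94 CPM in LNCaP and 0.333 and 0.563 CPM in LN-35, 5.83-fold lower (log2 fold change -2.51, SE 0.55, adjusted p = 0.000265). COL9A3, another chain of the same collagen, was at 4.32 and 4.3 CPM in LNCaP and 3.42 and 3.22 CPM in LN-35. Its groups did not overlap, yet the difference did not pass (-0.38, SE 0.31, adjusted p = 0.278).

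Collagen VI, which forms beaded filaments around cells, was among the most abundant collagens of LNCaP, and its main chains fell. COL6A1 was at 183 and 187 CPM in LNCaP and 83.1 and 79.9 CPM in LN-35, 2.27-fold lower (log2 fold change -1.19, SE 0.07, adjusted p = 6.77e-13). COL6A2, which like COL6A1 lies on chromosome 21, was at 96.7 and 119 CPM in LNCaP and 16 and 17.5 CPM in LN-35, 6.42-fold lower (log2 fold change -2.68, SE 0.11, adjusted p = 3.10e-15). COL6A3, which completes the trimer with them, was scarce throughout, with 2 and 0 counts in LNCaP, against 14 and 7 in LN-35, 12.8 times as much after scaling (counting interval 3.12 to 112), and was not tested. COL28A1, which shares the von Willebrand factor A domains of this class, was at 0.254 and 0.43 CPM in LNCaP and 2.92 and 3.54 CPM in LN-35, 9.44-fold higher (log2 fold change 3.22, SE 0.54, adjusted p = 1.32e-05).

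The remaining collagens attach cells or serve special matrices. COL7A1, which forms the anchoring fibrils under stratified epithelia, was at 41.3 and 39.6 CPM in LNCaP and 85.3 and 64.4 CPM in LN-35, 1.85-fold higher (log2 fold change 0.89, SE 0.11, adjusted p = 1.96e-06). COL18A1, a basement membrane collagen whose end fragment is endostatin, was at 38.8 and 45.3 CPM in LNCaP and 4.25 and 1.77 CPM in LN-35, 14-fold lower (log2 fold change -3.81, SE 0.24, adjusted p = 1.98e-08). The groups of both were well apart, although without LN-35 replicate 1 the COL18A1 value was -4.55. COL18A1 shares 16.43% of its exon bases with SLC19A1 on the opposite strand, and SLC19A1 also fell, from 41.9 ± 2.82 to 10.3 ± 1.52 CPM (SD, n = 2; log2 fold change -2.03, adjusted p = 3.68e-12). Since the sources do not state that counting used strand, reads of the shared bases cannot be assigned to either gene.

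Transmembrane collagens were low. COL23A1 had 19 and 27 counts in LNCaP (1.21 and 1.94 CPM) and none in LN-35, which is at least 12.8-fold lower against the floor of 3 counts over the LN-35 libraries (adjusted p = 2.49e-05). COL25A1, found in amyloid plaques, had 1 and 1 counts in LNCaP, against 10 and 6 in LN-35, 9.73 times as much after scaling (counting interval 2.29 to 87.2), and was not tested. Outside that class, COL26A1 was at 2.28 and 1.65 CPM in LNCaP and 0.25 and 0.563 CPM in LN-35, 4.84-fold lower (log2 fold change -2.25, SE 0.59, adjusted p = 0.00167). This call fell just past the threshold without LNCaP replicate 1 (adjusted p = 0.0501) and without LN-35 replicate 1 (adjusted p = 0.0518), and without LN-35 replicate 2 the value was -2.93. COL8A2, a short-chain network collagen of the corneal basement membrane, had 11 and 6 counts in LNCaP, against 1 and 12 in LN-35. Its groups overlapped, and it was not tested.

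Laminin chains ranged from near-equal levels to a near-complete loss. Of 12 laminin genes 9 were tested, with 3 higher, 4 lower and 2 not passed (77.8% called, beside 71.8% of all genes tested). The median log2 fold change was -0.08, and 2 of the 9 (LAMA3 and LAMA1) were called with at least a 4-fold difference. LAMA3, on chromosome 18 (23689443 to 23956222 on the plus strand), encodes the alpha chain of the epithelial laminin that anchors basal cells through hemidesmosomes. It had 5835 and 4681 counts in LNCaP (370 and 336 CPM) and 0 and 7 counts in LN-35 (0 and 0.563 CPM). The mean fell from 353 ± 24.6 to 0.282 ± 0.398 CPM (SD, n = 2), 1253-fold (log2 fold change -10.22, SE 0.23, adjusted p = 1.56e-13), the largest fold between group means among genes with counts in both groups. All of the LN-35 signal came from replicate 2, and the fitted log2 fold change was -15.26 without it and -9.26 without LN-35 replicate 1. Both values lay outside the 95% interval that goes with the SE (-10.72 to -9.73), so this SE understates the uncertainty. The RefSeq window of LAMA3 at chr18:23872770-23873069 on the plus strand, 1 start among those a gene may have, is shown because this gene had that fold and because it alone of the 48 windows (2.1%, beside 4.9% of all windows) held TGACTCA.
LAMA3: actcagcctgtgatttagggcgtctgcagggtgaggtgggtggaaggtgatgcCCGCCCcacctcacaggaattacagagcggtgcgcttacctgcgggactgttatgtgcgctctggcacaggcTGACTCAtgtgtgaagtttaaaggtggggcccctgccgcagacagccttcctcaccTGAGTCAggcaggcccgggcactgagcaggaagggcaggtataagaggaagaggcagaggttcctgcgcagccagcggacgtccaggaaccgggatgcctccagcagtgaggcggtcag
Capitals mark the motifs named for the collagen IV windows: 1 GC box and 2 AP-1 matches, of which the second reads TGAGTCA on this strand. This window lies inside the annotated gene and begins downstream of its 5′-most end.

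LAMB3, the beta chain that pairs with LAMA3 in that epithelial laminin, rose. It was at 6.28 and 7.53 CPM in LNCaP and 15.4 and 15 CPM in LN-35, 2.2-fold higher (log2 fold change 1.14, SE 0.18, adjusted p = 7.21e-06). Per kb of exon the level in LNCaP was 24 CPM for LAMA3 and 1.47 CPM for LAMB3, so these chains were far from equal in RNA already in the parental line.

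Of the chains of broadly expressed laminins, LAMA5, LAMB2 and LAMC1 were abundant in both lines and within 1.24-fold of their LNCaP level, and LAMB1 rose. LAMA5, the main alpha chain of mature epithelial basement membranes, was at 242 and 211 CPM in LNCaP and 271 and 247 CPM in LN-35, 1.14-fold higher (log2 fold change 0.19, SE 0.08, adjusted p = 0.0289). That small difference did not pass with library totals alone (0.11, adjusted p = 0.182), without LNCaP replicate 2 (0.09, adjusted p = 0.213) or without LN-35 replicate 1 (0.13, adjusted p = 0.273). LAMC1 was at 578 and 510 CPM in LNCaP and 426 and 451 CPM in LN-35, 1.24-fold lower (log2 fold change -0.31, SE 0.07, adjusted p = 0.000614). LAMB2, a beta chain of synapses and of the kidney filter, was at 248 and 253 CPM in LNCaP and 238 and 237 CPM in LN-35 and did not pass (-0.08, SE 0.07, adjusted p = 0.311), but did with library totals alone (-0.15, adjusted p = 0.0412). LAMB1, the beta chain that LAMB2 replaces in some tissues, was at 16.2 and 11.7 CPM in LNCaP and 53.7 and 52.1 CPM in LN-35. It rose 3.8-fold (log2 fold change 1.92, SE 0.13, adjusted p = 1.16e-11), from 1.71 to 6.5 CPM per kb of exon, and stayed below LAMB2 (36.5 and 34.6 CPM per kb) in both lines.

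LAMA1 and LAMC3 were at low level and lower in LN-35. LAMA1, an alpha chain of the early embryo, was at 1.02 and 1.43 CPM in LNCaP and 0.167 and 0.241 CPM in LN-35, 6-fold lower (log2 fold change -2.52, SE 0.72, adjusted p = 0.00345). Its call was lost without LNCaP replicate 2 (-2.26, adjusted p = 0.0681) and without LN-35 replicate 1 (-2.29, adjusted p = 0.0658), and 11.05% of its exon bases overlap genes on the opposite strand. LAMC3 was at 3.11 and 2.44 CPM in LNCaP and 1.17 and 1.53 CPM in LN-35, 2.06-fold lower (log2 fold change -1.04, SE 0.44, adjusted p = 0.037). With the repeat number as a block the adjusted p was 0.0891, with DESeq2 it was 0.132, and the call was lost without any 1 of the 4 libraries.

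**Figure D4:**
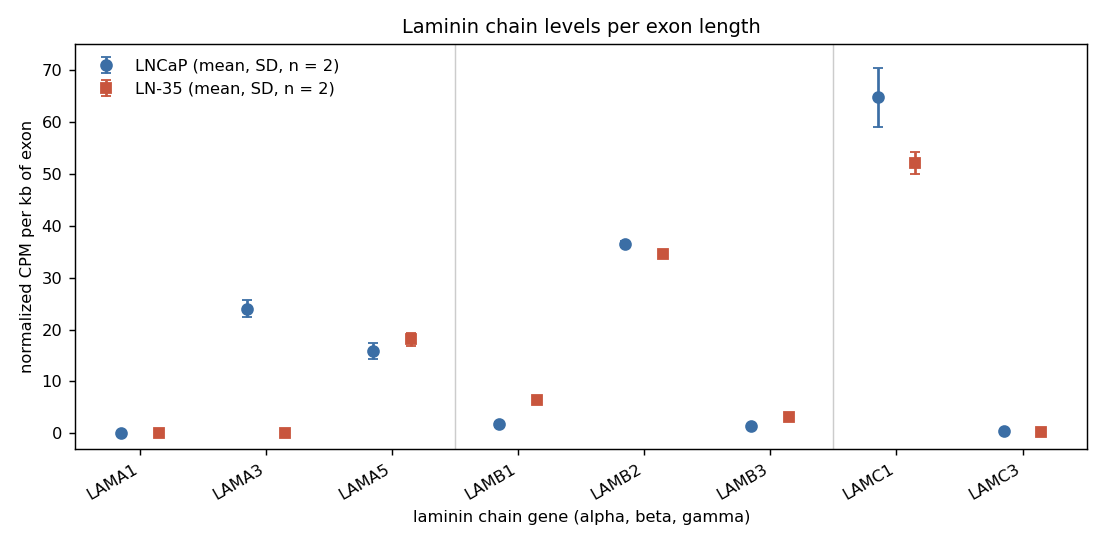
Level of 8 tested laminin chain genes per exon length (y axis: normalized CPM per kb of exon; points are means and bars SD, n = 2 libraries), in alpha, beta and gamma order. LAMA3 is at 24 CPM per kb in LNCaP and near 0 in LN-35, LAMC1, LAMB2 and LAMA5 are high in both lines, and LAMB1 rises from 1.71 to 6.5 CPM per kb.

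The proteins that link the laminin and collagen IV sheets moved in opposite directions. NID1, nidogen, which binds laminin and collagen IV, lies on chromosome 1 (235975830 to 236065162, minus strand). It was at 0.571 and 0.86 CPM in LNCaP and 67.6 and 76.4 CPM in LN-35, 101-fold higher (log2 fold change 6.65, SE 0.19, adjusted p = 1.96e-19). The related NID2 had no counts in LNCaP and 0.333 and 0.644 CPM in LN-35, which is at least 4.84-fold higher than the floor, and was not tested. Of its exon bases 29.96% overlap RTRAF on the opposite strand, which was far more abundant (96.9 ± 10.8 and 88.2 ± 4.12 CPM, SD, n = 2) and did not pass (adjusted p = 0.161). HSPG2, perlecan, the large heparan sulfate proteoglycan of basement membranes, was at 42.6 and 37.1 CPM in LNCaP and 1.5 and 1.77 CPM in LN-35. It was 24.4-fold lower (log2 fold change -4.60, SE 0.19, adjusted p = 3.56e-16). The groups were far apart, and LDLRAD2, which overlaps 11.72% of the HSPG2 exon bases, was at 0.0317 CPM in LNCaP and 0 in LN-35. AGRN, agrin, which clusters acetylcholine receptors at the neuromuscular junction, was at 118 and 109 CPM in LNCaP and 91.7 and 89 CPM in LN-35, 1.25-fold lower (log2 fold change -0.33, SE 0.08, adjusted p = 0.000618).

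Fibronectin, tenascin and decorin are glycoproteins of the matrix between cells. FN1, fibronectin, which integrins bind, was at 784 and 585 CPM in LNCaP and 73.3 and 73.9 CPM in LN-35. The mean fell from 684 ± 141 to 73.6 ± 0.408 CPM (SD, n = 2), 9.3-fold (log2 fold change -3.22, SE 0.15, adjusted p = 5.30e-07), and even the lower LNCaP library was far above both LN-35 libraries. TNC, tenascin C, a matrix protein of development, wounds and tumour stroma, was at 1.97 and 1.72 CPM in LNCaP and 38.7 and 40.3 CPM in LN-35, 21.4-fold higher (log2 fold change 4.41, SE 0.18, adjusted p = 2.20e-16). DCN, decorin, a small proteoglycan that binds collagen fibrils and is typical of fibroblasts, had no counts in LNCaP and 6.5 and 9.58 CPM in LN-35. It was at least 79.6-fold higher than the floor of 3 counts (adjusted p = 2.10e-10). Of the 8 fibroblast markers, 5 had no counts in the LN-35 libraries, and PDGFRB had 5 counts, PRRX1 had 2 and PDGFRA had 1 over both.

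Both crosslinking enzymes of the set changed, in opposite directions. PXDN, peroxidasin, which forms the sulfilimine bonds that join collagen IV trimers, lies on chromosome 2 (1631887 to 1744852, minus strand). It was at 44.7 and 47.7 CPM in LNCaP and had no counts in LN-35, which is at least 376-fold lower against the floor of 3 counts over the LN-35 libraries (adjusted p = 1.19e-17). LOX, lysyl oxidase, which starts the crosslinking of fibrillar collagen and elastin, was at 2.6 and 2.58 CPM in LNCaP and 9.58 and 10.1 CPM in LN-35, 3.8-fold higher (log2 fold change 1.92, SE 0.25, adjusted p = 3.49e-07). The RefSeq windows of PXDN (chr2:1744466-1744765, minus strand) and NID1 (chr1:236065041-236065340, minus strand) are shown as those of a gene without counts in LN-35 and of a gene that rose 101-fold, with capitals as before.
PXDN: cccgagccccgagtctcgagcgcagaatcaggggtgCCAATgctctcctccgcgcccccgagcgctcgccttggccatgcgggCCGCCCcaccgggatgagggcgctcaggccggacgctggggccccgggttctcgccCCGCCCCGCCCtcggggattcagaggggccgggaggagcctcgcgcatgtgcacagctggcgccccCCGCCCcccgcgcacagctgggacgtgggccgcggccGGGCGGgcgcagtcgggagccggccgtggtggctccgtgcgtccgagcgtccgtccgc
NID1: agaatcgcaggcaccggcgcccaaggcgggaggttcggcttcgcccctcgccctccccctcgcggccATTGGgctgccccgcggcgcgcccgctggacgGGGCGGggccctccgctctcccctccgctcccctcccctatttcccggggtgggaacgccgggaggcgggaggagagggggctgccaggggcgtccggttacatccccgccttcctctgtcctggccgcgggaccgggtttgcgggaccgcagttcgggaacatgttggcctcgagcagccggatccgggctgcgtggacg
Both held a GC box and a CCAAT box. PXDN held 5 GC boxes, of which a pair overlaps, and NID1 held 1.

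Of the 23 genes that were not tested, 15 had under 10 counts over all 4 libraries together. COL1A2, COL10A1, COL13A1 and LAMB4 had 5 counts each, COL9A1 and COL20A1 had 3, COL8A1 and COL17A1 had 2, COL6A6, LAMA2 and LAMA4 had 1, and COL11A1, COL22A1, COL15A1 and COL6A5 had none. These were not detectable at this depth or close to it, and no comparison was made. The other 8 had at least 10 counts and are given above. With no filter on low counts, COL19A1, COL6A3, NID2, COL4A1, COL25A1 and COL5A3 passed (adjusted p between 0.00561 and 0.0474), all higher in LN-35 except COL4A1, while COL2A1 (adjusted p = 0.773) and COL8A2 (adjusted p = 0.928) did not.

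The genes that make, cut and bind matrix proteins were described through lists from textbook knowledge, chosen with earlier results of these data known. Of 29 genes of collagen folding and modification 26 were tested, with 12 higher, 8 lower and 6 not passed (76.9% called, beside 71.8% of all genes tested; median log2 fold change 0.11). Of the 26, 2 had 3 counts or fewer in LN-35 and so entered with their direction fixed, and the other 24 held 12 higher and 6 lower, at a median of 0.28. P4HB, the disulfide isomerase that is also a subunit of prolyl hydroxylase, fell from 1959 ± 16.1 to 685 ± 19.9 CPM (SD, n = 2; log2 fold change -1.52, adjusted p = 3.92e-15). P4HA2, a catalytic subunit of the same enzyme, fell from 65.9 ± 0.28 to 28.5 ± 1.97 CPM (-1.21, adjusted p = 1.14e-10). The more abundant catalytic subunit P4HA1 went the other way, from 104 ± 6.89 to 149 ± 1.54 CPM (0.51, adjusted p = 1.67e-06). Of the lysyl hydroxylases, PLOD1 was lower (127 ± 7.72 to 55.8 ± 2.11 CPM, -1.18, adjusted p = 6.73e-12). PLOD3 (46.2 ± 3.93 to 165 ± 11.5 CPM, 1.83, adjusted p = 2.79e-15) and PLOD2 (3.39 ± 1.85 to 54 ± 2.1 CPM, 3.96, adjusted p = 4.89e-09) were higher. P3H3 and COLGALT2, which modify collagen prolines and hydroxylysines, rose 12-fold (adjusted p = 6.91e-15) and 7.93-fold (adjusted p = 1.35e-11).

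Among other crosslinking enzymes 6 of 8 were tested, with 2 higher, 2 lower and 2 not passed (66.7% called, beside 71.8%; median log2 fold change 0.50). TGM2, a transglutaminase that crosslinks fibronectin and other matrix proteins, was at 0.254 and 0.358 CPM in LNCaP and 74.3 and 63.5 CPM in LN-35, 225-fold higher (adjusted p = 1.88e-19). LOXL3, a lysyl oxidase relative, rose 8.64-fold (adjusted p = 1.45e-06), and the epidermal transglutaminases TGM1 and TGM3 fell 6.85-fold (adjusted p = 1.18e-09) and 18.5-fold (adjusted p = 3.25e-09).

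Matrix proteases and their inhibitors had 20 of 33 tested, with 9 higher, 10 lower and 1 not passed (95% called, beside 71.8%; median log2 fold change 0.03). Of the 20, 3 had 3 counts or fewer in 1 group, and the other 17 held 7 higher and 9 lower, at a median of -0.38. The inhibitors TIMP1 and TIMP2 moved in opposite directions. TIMP1 had 2 and 0 counts in LNCaP, against 783 and 741 in LN-35, 927 times as much after scaling (counting interval 256 to 7657, adjusted p = 3.86e-19), and TIMP2 fell from 88.7 ± 5.92 to 8.36 ± 0.667 CPM, 10.6-fold (adjusted p = 9.37e-18). ADAMTS1, a protease of aggrecan and versican, was at 843 and 740 CPM in LNCaP and 24.3 and 25.3 CPM in LN-35, 31.9-fold lower (adjusted p = 1.02e-22). Its relative ADAMTS9 had no counts in LNCaP and was at least 75.3-fold higher in LN-35 (adjusted p = 1.73e-10). Of the membrane-type proteases, MMP16 fell 4.64-fold (adjusted p = 5.40e-18) and MMP24 rose 4.33-fold (adjusted p = 2.09e-10).

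Matrix receptors had 24 of 32 tested, with 12 higher, 7 lower and 5 not passed (79.2% called, beside 71.8%; median log2 fold change 0.23). Of the 24, 3 had 3 counts or fewer in LNCaP, and the other 21 held 9 higher and 7 lower, at a median of 0.12. Receptors that fell included ITGA6, a laminin-binding integrin chain, from 79.9 ± 1.5 to 4.5 ± 0.354 CPM (17.8-fold, adjusted p = 1.43e-18). DDR2, a kinase activated by fibrillar collagen, fell 32.2-fold (adjusted p = 7.62e-12), and SDC4, a heparan sulfate co-receptor for fibronectin, fell 41.1-fold (adjusted p = 5.47e-15). Receptors that rose included ITGA5, the fibronectin-binding integrin chain, from 39.5 ± 1.32 to 344 ± 9.77 CPM (8.71-fold, adjusted p = 1.85e-20), so that FN1 and ITGA5 moved in opposite directions. ITGA1, a collagen-binding integrin chain, rose 39.7-fold (adjusted p = 3.53e-13). CD44, a receptor for hyaluronan, had 1 and 2 counts in LNCaP and was at 80.7 and 75.4 CPM in LN-35, 773 times as much after scaling (counting interval 264 to 3749, adjusted p = 2.08e-20).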

How the data were processed

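The authors deposited 1 table of unscaled estimated counts, covering 20332 genes. For the tools, the submitters' processing notes list HISAT2 2.0.5 and featureCounts 1.5.0-p3, with hg38 as the genome build. Between 11.49% and 12.0% of a library's values were not whole, and the sources used here do not give the step that made these fractions. Chains whose reads fit several genes, or an overlapping gene, are therefore uncertain. Libraries were grouped by title. Symbols were found for 20304 identifiers, of which 51 shared a symbol, and coordinates came from GENCODE release 29 (20113 identifiers matched).

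Estimated counts were rounded, filtered with filterByExpr (minimum count 10) and scaled by TMM factors. The groups were compared with the two-sided quasi-likelihood test of edgeR 4.0.16 (glmQLFit, robust=TRUE) in R 4.3.3, with limma 3.58.1, DESeq2 1.42.0 as an alternative, Python 3.11.15, pandas 2.3.3, numpy 2.4.6, scipy 1.17.1 and matplotlib 3.10.9. Calls were made where the Benjamini-Hochberg adjusted p was under 0.05 across the 13744 genes tested. Levels are CPM, given as mean ± SD, and log2 fold changes compare LN-35 with LNCaP. Each SE of a log2 fold change is its absolute value over the square root of the F statistic of the test. This is an approximation and can be too small where a group had few counts, as for LAMA3 and COL12A1. A group without counts was set to a floor of 3 counts over its 2 libraries (0.101 CPM for LNCaP, 0.123 CPM for LN-35), and ratios against 1 to 3 counts carry an exact 95% counting interval. The floor allows for counting error in the group without counts. Folds given as "at least" take the mean of the other group as found, without its counting error, which matters most at few counts. The interval covers counting error of both groups, and neither measure covers more, as no molecular identifiers are stated. The test was also run on simulated counts with few changed genes and a single dispersion, which is unlike these data, and no result here rests on that run.

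A batch tag in the labels marks repeat 1 and repeat 2 in both groups and pairs the libraries. The correlation of their deviations was 0.008, and the block was run as an alternative. Members and lists were chosen with earlier results of these data known. Members with at least 10 counts over the 4 libraries were named, and in each list up to 3 called genes per direction with the smallest adjusted p and a mean of at least 1 CPM. PLOD2 and P4HA1 were added beside the named genes of their families. Alternatives were RLE size factors, library totals alone, no filter on low counts (17043 genes), DESeq2, the replicate block, and each library left out in turn. Promoter windows came from RefSeq (GRCh38.p14). The values of 1 gene are not reported here.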

Additional observations from a re-analysis of the deposited data

How the results depend on the processing

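Across the 9 alternatives the matrix genes called higher numbered 16 to 24 (19 in the comparison as reported) and those called lower 14 to 19 (17 as reported), and no tested matrix gene changed direction while called. Leaving out 1 library at a time gave 16 to 20 higher and 14 to 15 lower. With the replicate block, which pairs the libraries by repeat number, 19 were called higher and 17 lower. COL1A1 then passed and LAMC3 did not, and the block changed no other call among the matrix genes or the named genes of the lists. DESeq2 called 19 higher and 15 lower, and library totals alone, which shifted the median log2 fold change of all genes by -0.077, called 18 higher and 19 lower. Of the 42 tested genes 31 kept their call under every alternative that gave a value, among them COL21A1, which fell below the filter without LN-35 replicate 1 and had no value there. The genes that did not were COL1A1, COL3A1, COL4A2, COL4A4, COL4A6, COL5A1, COL26A1, LAMA1, LAMA5, LAMB2 and LAMC3, with the values given beside each. All 41 list genes named by the rule on adjusted p, cell type markers included, kept theirs. A group of 2 libraries gives a single difference per gene as its spread, and genes at a few CPM or less, such as COL3A1, COL4A2 and COL4A4, had fold changes that moved with single libraries.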

Other observations

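Other secreted proteins of the matrix also differed between the lines in both directions. Of 55 further matrix glycoproteins 30 were tested, with 16 higher, 8 lower and 6 not passed (80% called, beside 71.8% of all genes tested, 36.4% higher and 35.5% lower) and a median log2 fold change of 1.38. Of the 30, 5 had 3 counts or fewer in 1 group and entered the test with their direction fixed, and the other 25 held 13 higher and 6 lower, at a median of 1.35. The direction of the list was not tested. This list and that of the proteoglycans below were chosen with earlier results of these data known. THBS1, thrombospondin, an adhesive glycoprotein that inhibits vessel growth, was at 26 and 23.2 CPM in LNCaP and 356 and 382 CPM in LN-35, 15-fold higher (edgeR adjusted p = 1.66e-21). NPNT, nephronectin, an integrin ligand of basement membranes, rose 30.3-fold, from 2.24 ± 0.331 to 67.9 ± 4.66 CPM (SD, n = 2; edgeR adjusted p = 1.39e-18). TNXB, a tenascin of connective tissue, rose 36-fold (edgeR adjusted p = 6.61e-14). RELN, reelin, which guides migrating neurons in the brain, was at 249 and 235 CPM in LNCaP and 40 and 52.5 CPM in LN-35, 5.24-fold lower (edgeR adjusted p = 1.70e-12). FBLN2, fibulin, was at 9.2 and 9.89 CPM in LNCaP and had no counts in LN-35, which is at least 77.8-fold lower against the floor of 3 counts over the LN-35 libraries. LTBP3, which binds latent TGF-beta, fell 2.21-fold (edgeR adjusted p = 1.26e-11).

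Among 25 proteoglycan core proteins 16 were tested, with 11 higher, 3 lower and 2 not passed (87.5% called, beside the same 71.8%, 36.4% and 35.5%), and the median log2 fold change was 2.30. Without 3 genes with 3 counts or fewer in 1 group, 9 of 13 were higher and 2 lower, at a median of 2.21. SPOCK2, a testican first described in brain, had the largest values, at 1.46 and 1.58 CPM in LNCaP and 738 and 714 CPM in LN-35. This was a 478-fold rise (edgeR adjusted p = 4.64e-25), to a level above that of every gene of the collagen, laminin and glycoprotein set in LN-35, in counts not divided by length. The glypicans split, with GPC6 5.29-fold higher (edgeR adjusted p = 4.20e-11), GPC3 8.93-fold lower (edgeR adjusted p = 1.05e-07) and GPC2 3.11-fold lower (edgeR adjusted p = 0.000531). TSKU, a secreted leucine-rich repeat protein, rose from 45.2 ± 4.55 to 133 ± 0.418 CPM (SD, n = 2; edgeR adjusted p = 8.06e-14).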
